A study of Mus musculus with 26 samples.

Results

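Inner cell masses (ICMs) of mouse embryos cultured with LY294002, an inhibitor of phosphoinositide 3-kinase (PI3K), were compared with ICMs of embryos cultured with added FGF4 and heparin. Messenger RNA (polyA) had been measured by FLASH-seq, which reads whole transcripts from very small inputs, with 1 library made from each intact ICM. The libraries were chosen by their treatment label alone, and they are 15 of the 26 libraries of the series. LY had 7 ICMs, treated with LY294002 at 10 µM. FGF4 had 8 ICMs, treated with FGF4 and heparin at 1 µg/ml. Neither group received the other agent, and the 6 ICMs given both (LY+FGF4) and the 5 given the vehicle (DMSO) did not enter the test. Their values are given beside some genes for orientation. All embryos were CD-1 morulae (stage E2.75), cultured in KSOM medium for 24 hours. The zona pellucida had been removed and the outer cells taken off by immunosurgery. Embryos from 5 litters were mixed before they were shared out, so every library stands for another embryo, of a litter that cannot be named. PI3K activity was not measured in these libraries, so a difference from FGF4 shows what LY-treated ICMs contained and not through which target LY acted.

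The ICM of the blastocyst gives rise to the epiblast, which forms the embryo proper, and to the primitive endoderm, which forms the yolk sac lining. Epiblast cells secrete FGF4, and the neighbouring cells that receive it through FGF receptors and the ERK kinases take on the primitive endoderm programme. PI3K acts through AKT and mTORC1 on growth, on nutrient uptake and on the transcription factor ATF4, which drives genes of amino acid supply. The comparison therefore sets ICMs exposed to a PI3K inhibitor beside ICMs in which the endoderm-inducing ligand was supplied in excess.

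Levels are given as TPM, the abundance of a transcript as a share of its library, and a fold change is the mean log2(TPM + 1) of LY minus that of FGF4, so that a positive value means higher in LY. A signed value given after a gene is this log2 fold change. Where 3 TPM values are given for a group, they are its lowest, median and highest library. On this scale the change of a gene at low TPM is understated. Of 10943 genes tested with limma, 1123 passed an adjusted p of 0.05, which is 10.3% of them. 562 genes were higher in LY (5.14% of all tested) and 561 were lower (5.13%). The median change of all tested genes was -0.03, with quartiles at -0.55 and 0.55. The changes were large: the median of the called genes was 1.68 for those higher in LY and -1.59 for those lower. A log2 fold change of at least 2 in size was reached by 215 genes higher and 214 genes lower in LY. Every LY library lay above every FGF4 library for 164 genes (1.50% of all tested) and below every one for 134 genes (1.22%), 2.72% in all. 35 of the called genes were listed at 0 in all LY libraries, and 14 were listed at 0 in all FGF4 libraries. These genes reached the filter, 1 TPM in 5 or more of the 15 libraries, only through the other group. They remain in the counts and medians given here and for the gene lists. For the genes at 0 in all libraries of a group no fold is given below. Other called genes were above 0 in few libraries of a group, such as Gata4, Chac1 and Spry4 in LY and Fgf4 in FGF4. They too reached the filter only through the other group, and their folds are given below.

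**Figure D1:**
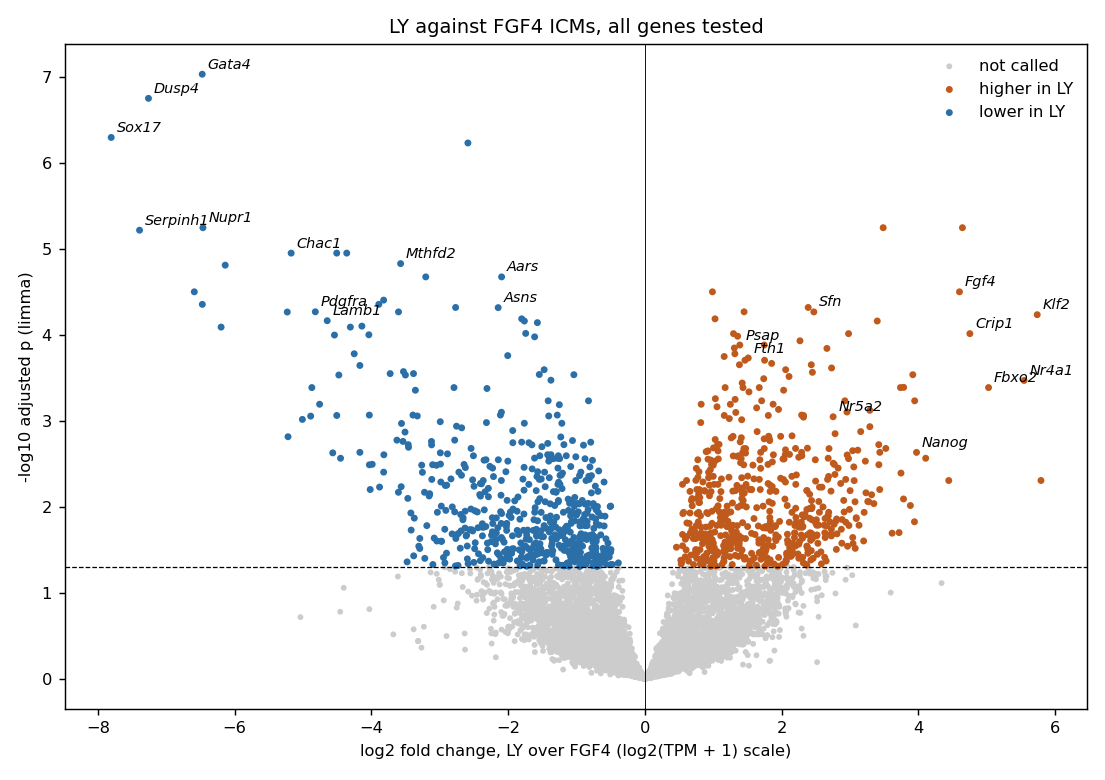
Log2 fold change (LY over FGF4, log2(TPM + 1) scale) against -log10 of the limma adjusted p for the 10943 genes tested, 1 point per gene. Orange points are the 562 genes higher in LY, blue points the 561 genes lower in LY, and the dashed line is the threshold. Primitive endoderm and amino acid genes stand at the upper left, with Gata4 at -6.47, and Klf2 and Nr4a1 at the far right.

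The libraries listed between 9860 and 10215 genes at TPM of at least 1 in LY and between 8315 and 10871 in FGF4. FGF4 replicates 2 and 3 had the fewest, 8315 and 8885. Read numbers estimated from the spacing of low TPM values ranged from 293073 to 521087 in LY and from 297953 to 755628 in FGF4. The median correlation between libraries was 0.839 within LY, 0.785 within FGF4 and 0.773 between LY and FGF4. FGF4 replicate 6 was the only library whose median correlation with the other group (0.822) exceeded that with its own (0.817). The median SD of a gene was 0.766 in LY and 0.986 in FGF4 on the log2 scale. The labels carry 1 date for all libraries and name no batch, but the groups differed in Y-linked transcripts, which mark male embryos. Y-linked transcripts with a summed TPM of at least 5 were present in 5 of 7 LY and 2 of 8 FGF4 libraries. Xist, the RNA that coats the inactive X chromosome in females, reached 5 TPM in 2 of 7 LY and 7 of 8 FGF4 libraries. FGF4 replicate 1 held both, with 59.3 TPM of Y-linked transcripts and 16.99 TPM of Xist, so these transcripts do not settle its sex. With their presence as a covariate 718 genes passed, with 17 primitive endoderm and 19 amino acid genes lower and 6 epiblast genes higher in LY, from the lists described further on. Among libraries without them (2 LY against 6 FGF4) 39 genes passed, 35 of them lower in LY, with 9 primitive endoderm, 7 amino acid and 0 epiblast genes. Pou5f1, a transcription factor of ICM cells, was present in every library, with 936, 1222 and 1461 TPM in LY, against 949.8, 1089 and 1495 TPM in FGF4. The trophectoderm factor Cdx2 did not exceed 11.2 TPM in any LY library. In FGF4 it reached 54.4 TPM in replicate 1 and 282 TPM in replicate 6, and was 14.2 TPM or less in the other 6.

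Several epiblast genes, Nanog and Fgf4 among them, were higher in LY. Of 14 tested genes of the epiblast list, 7 were higher and 1 was lower, against 5.14% and 5.13% of all genes, and their median change was 1.31. Nanog, the homeobox factor that sets epiblast fate, had 101, 158 and 177 TPM in LY, against 0, 8.48 and 176 TPM in FGF4. All LY libraries were above 7 of the 8 FGF4 libraries, and FGF4 replicate 6, at 176 TPM, stood among them (log2 fold change 3.97, SE 0.75, adjusted p = 0.00234). Fgf4 itself, the ligand made by epiblast cells, had 16.1, 27.1 and 73.1 TPM in LY, against 0, 0 and 5.72 TPM in FGF4. The groups did not overlap, and 7 of 8 FGF4 libraries were listed at 0 (log2 fold change 4.60, SE 0.53, adjusted p = 3.18e-05). It also had 0 TPM in each of the 6 LY+FGF4 libraries, and the DMSO libraries held 29.4 to 80.2 TPM. Klf2, a Krüppel-like factor of naive pluripotency, had the highest fold of the list, with 120.4, 169.7 and 241 TPM in LY, against 0, 1.34 and 41.2 TPM in FGF4. No FGF4 library came near the lowest LY library (log2 fold change 5.74, SE 0.71, adjusted p = 5.88e-05). In a bulk ICM, fewer cells of a type and less of its RNA per cell cannot be told apart, and this holds for all lineage genes described here.

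The other called epiblast genes moved less. Tdh, the threonine dehydrogenase that feeds one-carbon metabolism in mouse pluripotent cells, had 45.8 to 229.9 TPM (median 122) in LY and 8.84 to 48.5 TPM (median 26.4) in FGF4 and its change was 2.15 (adjusted p = 0.00151). Utf1, a chromatin-associated pluripotency factor, and Gdf3, a TGF-beta family ligand, were higher in LY by 1.09 (adjusted p = 0.0116) and 1.34 (adjusted p = 0.0215). Prdm14, a repressor that guards naive pluripotency, was higher by 2.16 (adjusted p = 0.0267), with 1 of 8 FGF4 libraries above 0. That call was lost when LY replicate 6 was left out (adjusted p = 0.052). Spp1, the secreted glycoprotein osteopontin, went the other way, with a change of -3.10 (adjusted p = 0.0472). Sox2, the HMG-box partner of Pou5f1, did not pass: it had 4.1 to 60.3 TPM (median 33.7) in LY and 0 to 56.5 TPM (median 19.3) in FGF4, and its change was 1.28 (adjusted p = 0.317). Esrrb, Zfp42 and Pou5f1 did not pass either, with changes of 0.42, 0.28 and 0.11. Nodal, Fgf15, Bmp15 and Enox1 reached 1 TPM in too few libraries to be tested.

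The naive pluripotency genes were called in both directions. Of 19 tested, 5 were higher and 4 lower in LY (47.4% called, against 10.3% of all genes), with a median of 0.19. Nr5a2, an orphan nuclear receptor, had 157, 239.9 and 290.0 TPM in LY, against 5.29, 49.9 and 115 TPM in FGF4, without overlap (log2 fold change 2.753, SE 0.46, adjusted p = 0.000903). Tfcp2l1 and Dppa3 were higher by 1.02 (adjusted p = 0.0198) and 0.83 (adjusted p = 0.0204). Bcl3, an atypical NF-kappa-B cofactor, had 0 TPM in every FGF4 library and reached 36.6 TPM in LY, where 2 of 7 libraries were also at 0. In the opposite direction Il6st, the shared gp130 receptor of the LIF family, had 0, 2.4 and 11.8 TPM in LY, against 17.7, 36 and 43 TPM in FGF4. It did not overlap between groups (log2 fold change -3.39, SE 0.56, adjusted p = 0.000864). Tbx3, a T-box factor found in both naive stem cells and endoderm, had 18.1 to 91.4 TPM (median 48.4) in LY and 91.6 to 206 TPM (median 147) in FGF4, again without overlap (log2 fold change -1.54, SE 0.32, adjusted p = 0.00483). Sall4 was lower, at -1.30 (adjusted p = 0.0174) and Dnmt3l, the catalytically inactive partner of the de novo DNA methyltransferases, at -3.12 (adjusted p = 0.00175). Klf4, Klf5, Stat3 and Dppa5a did not pass, with changes of 0.19, -0.53, 0.43 and 0.09.

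Most primitive endoderm genes were lower in LY. Of 26 tested, 18 were lower in LY, none was higher, and 8 had every LY library below every FGF4 library (1.22% of all genes did). The median change was -2.72. Gata4, a zinc-finger factor of committed endoderm, had 0, 0 and 1.74 TPM in LY, against 34.1, 128 and 216 TPM in FGF4. No LY library exceeded 1.74 TPM (log2 fold change -6.47, SE 0.44, adjusted p = 9.39e-08). Sox17, an HMG-box factor of the same stage, had 0, 0 and 21 TPM in LY, against 431, 663 and 909.9 TPM in FGF4. This was a log2 fold change of -7.80 (SE 0.62, adjusted p = 5.11e-07), and 4 of 7 LY libraries were listed at 0. Pdgfra, the receptor by which primitive endoderm cells are usually recognised, had 0.4, 14.3 and 49.1 TPM in LY, against 216, 352 and 507 TPM in FGF4, without overlap (log2 fold change -4.82, SE 0.59, adjusted p = 5.44e-05). Foxq1, a forkhead factor, was listed at 0 in all LY libraries and had 9.07, 22.6 and 55.4 TPM in FGF4.

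Gata6, the earliest of the endoderm factors and already present in uncommitted ICM cells, had a smaller change. It had 135, 164 and 232 TPM in LY, against 199, 311 and 456 TPM in FGF4. The groups overlapped, and the change was below 1 log2 unit (log2 fold change -0.88, SE 0.21, adjusted p = 0.0124). Every LY library thus held Gata6 at about 135 TPM or more while Gata4 was at or below 1.74 TPM. Several genes tied to later endoderm were not called: Sox7, Hnf4a, Dab2, Lrp2 and Amn did not pass, and Foxa2, Rspo3, Lgals2, Ttr and Afp reached 1 TPM in too few libraries to be tested. Of the endocytic receptors of the list only Cubn was called, lower, at -2.29 (adjusted p = 0.00614). Apoe was the single tested member with a positive change, 0.56 (adjusted p = 0.236).

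**Figure D2:**
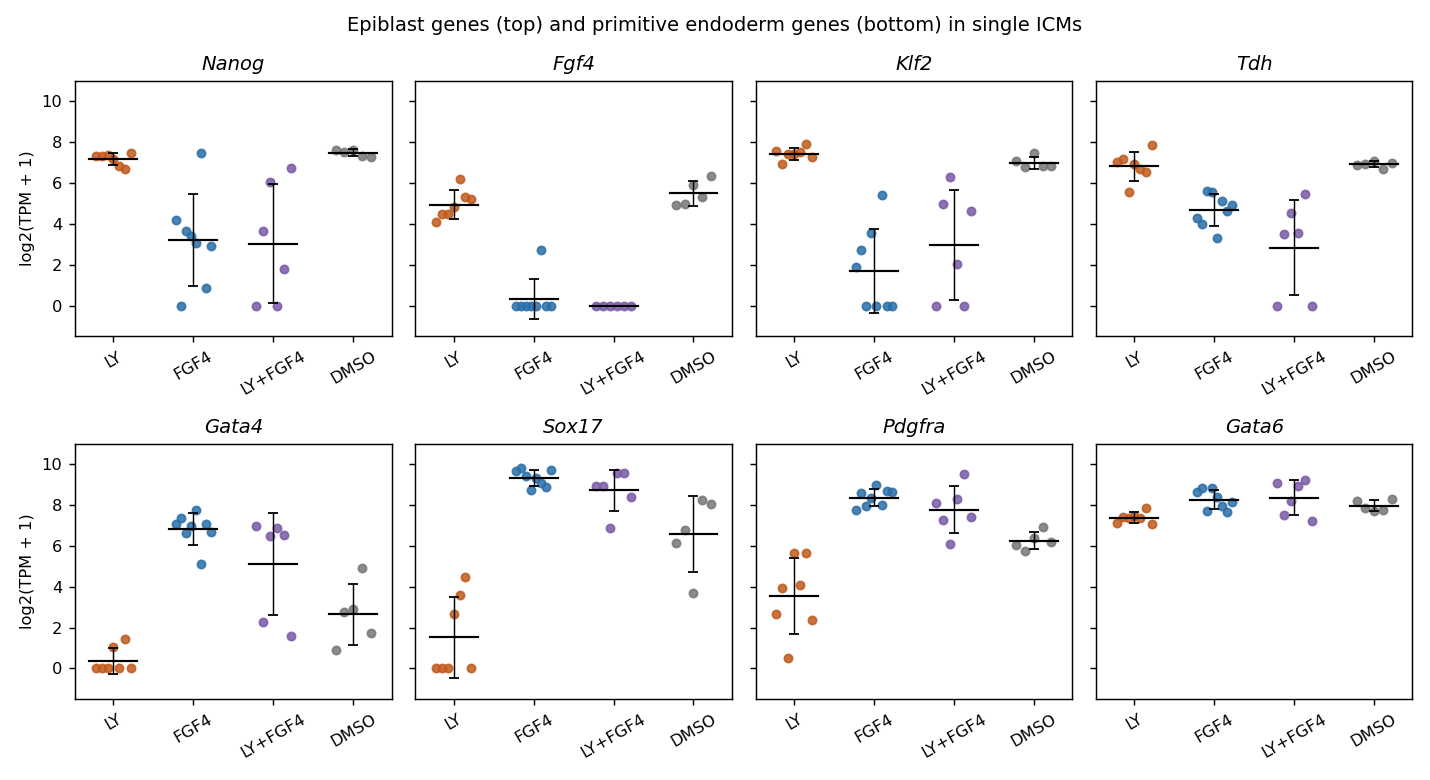
Level (log2(TPM + 1)) of 4 epiblast genes (top) and 4 primitive endoderm genes (bottom) in each ICM, for LY, FGF4, LY+FGF4 and DMSO. Points are libraries, the line is the mean and the bar its SD. LY sits with DMSO for Nanog, Fgf4, Klf2 and Tdh and at or near 0 for Gata4, 4 of its 7 libraries are at 0 for Sox17, and Gata6 differs least between the groups.

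Most called genes of the secreted matrix were lower in LY. The basement membrane list had 12 of 23 tested genes lower in LY and 2 higher, with a median of -1.25, and it shares genes with the endoderm list. Serpinh1, the collagen chaperone HSP47 of the endoplasmic reticulum, had 0, 0 and 7.6 TPM in LY, against 40.5, 592 and 1090.4 TPM in FGF4. The lowest FGF4 library was still above the highest LY library (log2 fold change -7.39, SE 0.73, adjusted p = 6.12e-06). Lamb1, a laminin chain, had 11.8, 35.4 and 134 TPM in LY, against 123, 1534 and 2389 TPM in FGF4. FGF4 replicate 6 was lowest in its group at 123 TPM and overlapped LY (log2 fold change -4.65, SE 0.59, adjusted p = 6.90e-05). Lama1, the laminin alpha chain of embryonic basement membranes, was lower, at -5.01 (adjusted p = 0.00097). Col4a1 and Col4a2, the paired chains of collagen IV, were lower, at -2.77 (adjusted p = 4.84e-05) and -2.68 (adjusted p = 0.00121). These neighbouring genes overlap at their ends, and the strand setting of the counting is not given, so reads of the pair may be shared. Sparc, a matrix glycoprotein, was lower, at -3.82 (adjusted p = 3.98e-05), and the prolyl hydroxylase P4ha2 and the proteoglycan Hspg2 at -2.92 (adjusted p = 0.00569) and -3.56 (adjusted p = 0.00587). Fn1 (fibronectin) and Nid1 (nidogen, which links laminin to collagen IV) were higher in LY, by 2.22 (adjusted p = 0.00429) and 1.41 (adjusted p = 0.0097). Nid1 had 37.3 to 161 TPM (median 59.6) in LY and 17.5 to 36 TPM (median 25.3) in FGF4, without overlap. Itgb1, the common integrin beta chain, did not pass, at -0.08 (adjusted p = 0.901).

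The levels of the lineage lists placed each library. The 31 genes of the endoderm list, 26 of them tested, summed to 761, 1402 and 2009.6 TPM (lowest, median and highest) in LY. In FGF4 they summed to 2418, 6251 and 7712 TPM, without overlap. The epiblast list has 18 genes, 14 of them tested. Its sums were 2203, 2402 and 3449 TPM in LY and 1474, 1819.9 and 2499 TPM in FGF4. FGF4 replicate 6 stood apart from its group: it had the lowest endoderm sum (2418 TPM), the highest epiblast sum (2499 TPM), and the lowest FGF4 values of Gata4, Fgfr2 and Lamb1. It nevertheless held Sox17 at 530.5 TPM. Without FGF4 replicates 2, 3 and 6 there were 1196 called genes, 18 of 24 tested endoderm genes were lower in LY, and 6 of 14 epiblast genes were higher.

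**Figure D3:**
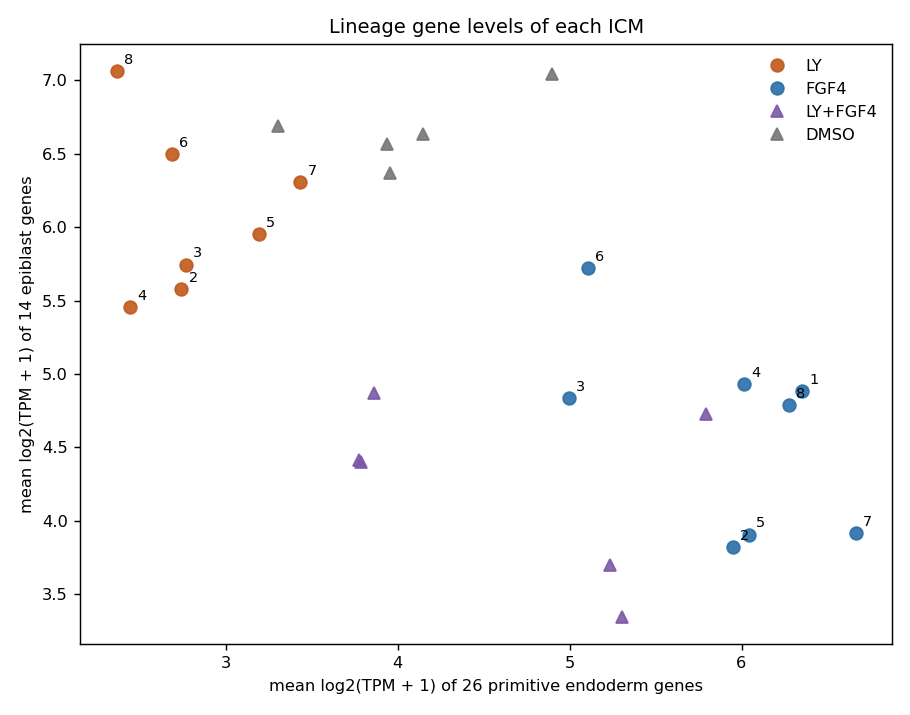
Mean log2(TPM + 1) of the 14 tested epiblast genes (vertical axis) against that of the 26 tested primitive endoderm genes (horizontal axis), 1 point per ICM, with replicate numbers for LY and FGF4. LY libraries lie between 2.37 and 3.44 on the endoderm axis and FGF4 libraries between 4.997 and 6.66, with FGF4 replicate 6 highest of its group on the epiblast axis.

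Several trophectoderm genes were higher in LY as well. Of 15 tested, 7 were higher and none lower (46.7% called, against 10.3% of all genes), with a median of 0.75. Sfn, the epithelial 14-3-3 sigma protein, had 831, 1131 and 1761 TPM in LY, against 70.6, 209 and 503 TPM in FGF4, without overlap (log2 fold change 2.47, SE 0.30, adjusted p = 5.45e-05). Cldn4, a tight-junction claudin, had 329 to 637 TPM (median 370.1) in LY and 14.4 to 292 TPM (median 51.8) in FGF4, also without overlap (log2 fold change 2.92, SE 0.47, adjusted p = 0.000589). Tfap2c, an AP-2 factor shared by trophectoderm and early ICM, was higher by 2.32 (adjusted p = 0.000913). Cldn6, Cldn7, the keratin Krt7 and the water channel Aqp3 were higher by 2.31, 1.38, 1.77 and 2.37. The defining factors did not pass: Cdx2, Eomes and Gata3 had changes of -0.13 (adjusted p = 0.955), -1.43 (adjusted p = 0.254) and -1.24 (adjusted p = 0.406). Gata2, Elf5, Dppa1, Id2, Tspan8, Esx1 and Plac1 reached 1 TPM in too few libraries to be tested, and the keratins Krt8 and Krt18 did not pass. The summed list ranged from 2167 to 3258 TPM in LY and from 712 to 2256 TPM in FGF4, where replicate 6 was highest. With the trophectoderm level of each library as a covariate, 139 genes passed, 60 higher and 79 lower in LY. Among them were 10 endoderm genes, 12 of the ATF4 and amino acid list, 8 synthetase genes and 4 matrix genes, all lower in LY, and 2 epiblast genes and 1 lysosomal gene, higher in LY. With this covariate 0 genes passed in either direction in the lists of glycolysis, sterol synthesis, the respiratory chain, S phase, mitosis, p53 targets, WNT, and BMP, Nodal and TGF-beta. The covariate was the mean log2(TPM + 1) of all 22 genes of the trophectoderm list. Over the 15 tested genes alone, this mean was 5.12 to 5.59 in LY. In FGF4 it was 4.93 or less except in replicate 6, at 5.78. The trophectoderm level thus largely followed the treatment, and this fit cannot tell them apart.

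Genes read as outputs of FGF receptor and ERK signalling split by gene. Of 18 tested, 5 were lower in LY and 1 higher (33.3% called, against 10.3% of all genes), with a median of -0.69. Dusp4, a phosphatase that acts on nuclear ERK, had 0, 0 and 9.84 TPM in LY, against 113, 362 and 540.0 TPM in FGF4. No LY library came near the lowest FGF4 library (log2 fold change -7.26, SE 0.53, adjusted p = 1.79e-07). Spry4, a feedback inhibitor of receptor tyrosine kinases, had 0, 0 and 1.74 TPM in LY, against 3.57, 25.3 and 44.4 TPM in FGF4, without overlap (log2 fold change -4.14, SE 0.53, adjusted p = 7.98e-05). The ETS factor Etv4 had 0, 0 and 26.2 TPM in LY, against 16.4, 30.2 and 60.5 TPM in FGF4, where LY replicate 4, at 26.2 TPM, overlapped FGF4 (log2 fold change -4.03, SE 0.67, adjusted p = 0.000864). Spred1, another feedback inhibitor, and Phlda1 were lower, at -2.49 (adjusted p = 0.0112) and -1.57 (adjusted p = 0.0146). Other members of the same families did not pass. Etv5 had 21.5 to 466 TPM (median 197) in LY and 41 to 518 TPM (median 119) in FGF4 and a change of 0.06 (adjusted p = 0.968), and the ERK phosphatase Dusp6 had 0 to 27.8 TPM (median 1.3) in LY and 0 to 23.9 TPM (median 15) in FGF4 and a change of -1.81 (adjusted p = 0.179). Spry1, Spry2, Egr1 and Fos did not pass either, with changes of -0.94, -1.14, 0.96 and -0.52. Myc was the member higher in LY (log2 fold change 3.94, SE 0.99, adjusted p = 0.015), and that call was lost with the Y-linked covariate.

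Among receptors and adaptors 1 of 21 tested genes was lower in LY and 2 were higher (14.3% called, against 10.3% of all genes). Fgfr2, the receptor enriched in primitive endoderm, had 0.76, 2.79 and 25.5 TPM in LY, against 21.9, 97.7 and 126 TPM in FGF4. FGF4 replicate 6, at 21.9 TPM, was the lowest of its group and overlapped LY (log2 fold change -4.31, SE 0.56, adjusted p = 8.19e-05). The annotated span of Fgfr2 takes in many other genes, Bub3, Oat and Ctbp2 among them, and reads may be shared. Fgfr1, the receptor expressed across the ICM, had 57.2 to 122 TPM (median 85.2) in LY and 20.1 to 128 TPM (median 63.8) in FGF4 and did not pass, at 0.56 (adjusted p = 0.36). Hras was higher by 0.86 (adjusted p = 0.0382), a call that 7 of the 15 fits without a single library lost. The transcripts of the kinases and adaptors Mapk3, Map2k1, Map2k2, Grb2 and Ptpn11 did not pass, with changes between -0.21 and 0.89.

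The genes of amino acid supply formed the other large block lower in LY. Of 28 tested genes of the ATF4 and amino acid list, 20 were lower in LY and none higher. The median was -1.58, and 12 genes had all LY libraries below all FGF4 libraries, against 1.22% of all genes. ATF4 is a leucine-zipper factor of the integrated stress response that binds, with C/EBP partners, to sites of the form TGATGNAA. The windows shown here belong to called genes that hold this motif. They run from 250 bases before to 50 bases after the RefSeq gene start (GRCm38.p6) and are written on the gene's strand. Capitals mark the motif, which appears as its reverse complement where it lies on the opposite strand.
Chac1 (chr2:119350992-119351291, + strand): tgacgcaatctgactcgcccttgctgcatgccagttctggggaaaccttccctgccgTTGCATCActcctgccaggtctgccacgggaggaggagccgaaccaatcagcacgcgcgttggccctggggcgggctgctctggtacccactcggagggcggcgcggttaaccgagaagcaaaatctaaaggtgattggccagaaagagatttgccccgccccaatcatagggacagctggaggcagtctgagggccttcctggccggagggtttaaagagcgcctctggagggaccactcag
Nupr1 (chr7:126625421-126625720, - strand): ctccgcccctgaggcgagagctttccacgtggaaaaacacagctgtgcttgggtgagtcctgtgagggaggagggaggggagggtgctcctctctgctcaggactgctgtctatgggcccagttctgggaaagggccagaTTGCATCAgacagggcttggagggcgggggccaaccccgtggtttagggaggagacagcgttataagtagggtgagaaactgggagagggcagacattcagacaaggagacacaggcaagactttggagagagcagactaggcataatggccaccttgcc
Trib3 (chr2:152344011-152344310, - strand): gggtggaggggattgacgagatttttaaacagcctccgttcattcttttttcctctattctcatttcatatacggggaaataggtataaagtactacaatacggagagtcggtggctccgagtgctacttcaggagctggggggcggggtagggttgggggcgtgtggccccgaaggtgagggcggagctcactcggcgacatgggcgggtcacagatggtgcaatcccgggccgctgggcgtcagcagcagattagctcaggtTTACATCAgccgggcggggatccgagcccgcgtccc
Asns (chr6:7693160-7693459, - strand): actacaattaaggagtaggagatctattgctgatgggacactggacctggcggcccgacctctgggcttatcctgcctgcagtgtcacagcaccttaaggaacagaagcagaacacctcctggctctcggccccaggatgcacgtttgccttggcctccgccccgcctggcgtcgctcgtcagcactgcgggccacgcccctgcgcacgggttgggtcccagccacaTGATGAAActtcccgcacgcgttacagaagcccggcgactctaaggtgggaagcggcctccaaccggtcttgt
Aars (chr8:111033592-111033891, + strand): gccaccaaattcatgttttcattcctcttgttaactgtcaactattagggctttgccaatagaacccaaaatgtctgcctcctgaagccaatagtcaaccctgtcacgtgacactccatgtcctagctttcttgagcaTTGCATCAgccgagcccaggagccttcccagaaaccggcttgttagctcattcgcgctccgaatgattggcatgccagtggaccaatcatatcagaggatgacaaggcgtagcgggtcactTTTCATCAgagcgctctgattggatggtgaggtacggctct

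The motif was searched on both strands in windows of 300 bases. It was found in 6 of the 19 called ATF4 and amino acid genes with a RefSeq entry (Asns, Chac1, Nupr1, Pycr1, Slc1a4 and Trib3) and in 0 of the 6 that were not called. It was found in 5 of the 8 called aminoacyl-tRNA synthetase genes with an entry (Aars, Gars, Iars, Tars and Yars) and in 0 of 4 not called. For comparison, 2.39% of the 8534 tested genes with an entry and 3.97% of all 32851 windows hold it. The lists were built partly from genes known as ATF4 targets, a match in these letters is a description and not a binding site, and its absence says only that these letters are not in the window.

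Chac1, whose product degrades glutathione, had 0, 0 and 5.64 TPM in LY, against 14.8, 42.3 and 97.8 TPM in FGF4. LY replicate 6 alone was above 0 among the LY libraries (log2 fold change -5.17, SE 0.54, adjusted p = 1.13e-05). Nupr1, a small stress-induced chromatin protein, had 0, 0 and 25.7 TPM in LY, against 91.2, 177 and 290.3 TPM in FGF4, without overlap (log2 fold change -6.46, SE 0.63, adjusted p = 5.72e-06). Trib3, a pseudokinase that binds AKT and restrains ATF4, had 0, 0 and 9.89 TPM in LY, against 13.8, 53.4 and 118 TPM in FGF4, also without overlap (log2 fold change -4.48, SE 0.66, adjusted p = 0.000296). Outside the comparison, Chac1 had 0 TPM in each LY+FGF4 library and had a median of 18.1 TPM in DMSO. Nupr1 had medians of 0 TPM in LY+FGF4 and 82 TPM in DMSO. Over the list, the median member level on the log2(TPM + 1) scale was 4.28 in LY, 6.30 in FGF4, 4.15 in LY+FGF4 and 6.08 in DMSO. For the endoderm list the same level was 1.83 in LY, 6.48 in FGF4, 5.02 in LY+FGF4 and 4.36 in DMSO. LY+FGF4 libraries thus stood near LY for the amino acid genes and between LY and FGF4 for the endoderm genes, a comparison of levels that was not tested. Each LY+FGF4 library listed fewer genes (9534 at most) than any LY or DMSO library, so a 0 there may be a missed transcript.

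Most enzymes and transporters of the list were lower in LY too. Mthfd2, the mitochondrial enzyme of the folate one-carbon pathway, had 1.37, 10.6 and 16.3 TPM in LY, against 75.8, 104 and 156 TPM in FGF4, without overlap (log2 fold change -3.57, SE 0.38, adjusted p = 1.50e-05). Aldh18a1, which begins proline synthesis, had 0, 8.36 and 40.2 TPM in LY, against 217, 333 and 874 TPM in FGF4 (log2 fold change -5.23, SE 0.65, adjusted p = 5.47e-05). Asns, asparagine synthetase, had 106, 161 and 451 TPM in LY, against 425, 799 and 1184 TPM in FGF4, and LY replicate 7, at 451 TPM, overlapped FGF4 (log2 fold change -2.15, SE 0.26, adjusted p = 4.86e-05). The serine synthesis enzymes Phgdh, Psat1 and Psph were lower, at -2.32 (adjusted p = 0.00106), -1.41 (adjusted p = 0.000885) and -1.57 (adjusted p = 0.00394). Among transporters, Slc7a1 (cationic amino acids) had 0 to 1.66 TPM (median 1.15) in LY and 13.4 to 66.5 TPM (median 31) in FGF4 and was lower, at -4.36 (adjusted p = 1.13e-05). Slc6a9 (glycine) was lower, at -3.89 (adjusted p = 4.46e-05), Slc38a2 (neutral amino acids) at -2.40 (adjusted p = 0.00756) and Slc3a2, the heavy chain of the 4F2 complex, at -1.25 (adjusted p = 0.000654). The transcription factors Atf5 and Cebpb were lower, at -2.99 (adjusted p = 0.00103) and -1.53 (adjusted p = 0.0271). Atf4 itself, which is controlled largely at translation, did not pass, at -0.27 (adjusted p = 0.613). Ddit3, Ddit4, Shmt2, Slc7a5 and Slc7a3 did not pass, with changes of -0.68, -0.93, -0.94, -1.07 and -0.22.

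Genes of the cytosolic aminoacyl-tRNA synthetases, which charge tRNAs with their amino acids, were also mostly lower in LY. Of 19 tested, 13 were lower in LY, none was higher, and 7 did not overlap between the groups (2.72% of all genes did not). The median was -1.16. Aars had 40.1, 64.5 and 83.9 TPM in LY, against 202, 262 and 395 TPM in FGF4 (log2 fold change -2.10, SE 0.23, adjusted p = 2.14e-05), and it overlaps Exosc6 in the annotation. Nars had 216, 338 and 605 TPM in LY, against 866, 1123 and 1928 TPM in FGF4 (log2 fold change -1.80, SE 0.23, adjusted p = 6.56e-05), and Yars had 88 to 275 TPM (median 203) in LY and 442 to 795 TPM (median 628) in FGF4 (log2 fold change -1.76, SE 0.22, adjusted p = 6.96e-05). Neither overlapped between groups. Cars, Tars and Wars were lower, at -2.01 (adjusted p = 0.000176), -1.47 (adjusted p = 0.000256) and -1.37 (adjusted p = 0.000339). Qars, Hars, Dars, Farsa and Farsb did not pass, with changes of 0.17, 0.15, -0.08, -0.11 and -0.34.

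**Figure D4:**
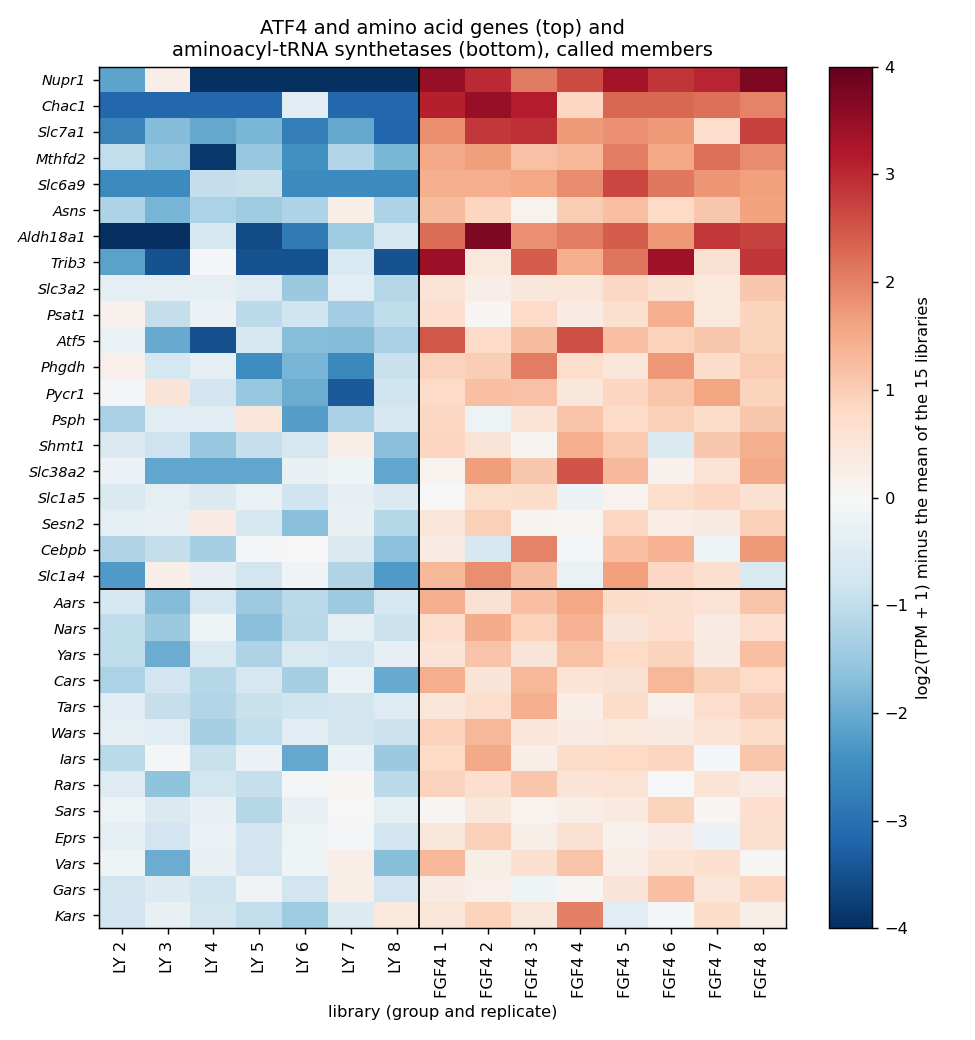
Level of each called gene of the ATF4 and amino acid list (20 genes, top) and of the aminoacyl-tRNA synthetases (13 genes, bottom) in every LY and FGF4 library, as log2(TPM + 1) minus the gene's mean over the 15 libraries. Red is above and blue below that mean, on a scale that ends at 4 and -4. Nearly all LY squares are blue and nearly all FGF4 squares red.

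Few transcripts of the PI3K pathway itself passed the test. Of 26 tested components, 1 was higher in LY and none lower, near or under the share of all genes. Rps6kb2, an S6 kinase, was that gene, at 1.24 (adjusted p = 0.0383). It overlaps Coro1b, and 7 of the 15 fits without a single library lost the call. Pik3ca, Pik3r1, Akt1 and Mtor had changes of 0.31, -0.43, 0.14 and -0.76 and did not pass. FOXO factors are held out of the nucleus by AKT. Of 16 tested genes of a FOXO target list, Sod2 (mitochondrial superoxide dismutase) and Foxo3 were higher in LY and Klf15 lower. The called share was 18.8%, against 10.3% of all genes. Sod2 had 162, 197 and 258 TPM in LY, against 69.3, 97.9 and 143 TPM in FGF4, without overlap (log2 fold change 1.06, SE 0.19, adjusted p = 0.00191). Foxo3 was higher by 1.47 (adjusted p = 0.0236), a call lost without LY replicate 4 (adjusted p = 0.051). Other targets such as Cdkn1b, Ccng2, Txnip and Insr did not pass.

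The called lysosomal genes were all higher in LY. Of 30 tested, 9 were higher (5.14% of all genes were) and none lower, with a median of 0.51. Psap, the precursor of the saposins that aid lipid breakdown, had 1508, 1661 and 1916 TPM in LY, against 387, 603 and 1054 TPM in FGF4, without overlap (log2 fold change 1.39, SE 0.19, adjusted p = 0.000132). Grn (progranulin), the membrane protein Lamp2, the protease Ctsd and the cholesterol carrier Npc2 were higher by 1.88, 1.75, 1.29 and 1.45. Ctsb, Ctsl, Cd63, Hexa and Asah1 did not pass, and neither did Tfeb and Tfe3, the factors that drive lysosomal genes. In the autophagy list 3 of 22 were higher and none lower (13.6% called, against 10.3% of all genes). Wipi2, which marks forming autophagosomes, had 149.6 to 315 TPM (median 217) in LY and 33.3 to 119 TPM (median 64) in FGF4 (log2 fold change 1.85, SE 0.26, adjusted p = 0.000217). Gabarapl2 was higher by 0.92 (adjusted p = 0.0121) and Rb1cc1 by 0.98 (adjusted p = 0.0472), and 12 of the 15 fits without a single library lost the call of Rb1cc1.

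The iron storage subunits were higher in LY. Fth1, the ferritin heavy chain, had 1714, 2081 and 4344 TPM in LY, against 482, 709 and 1139 TPM in FGF4 (log2 fold change 1.51, SE 0.21, adjusted p = 0.000187). Ftl1, the light chain, had 3035, 4077 and 6302 TPM in LY, against 1577, 2004 and 2525 TPM in FGF4 (log2 fold change 1.03, SE 0.16, adjusted p = 0.000557). Neither overlapped between groups, and both have processed copies in the genome to which reads can be assigned. Pcbp1, which delivers iron to ferritin, and the reductase Steap3 were higher by 0.75 (adjusted p = 0.00359) and 2.31 (adjusted p = 0.0173), so 4 of 12 tested iron genes were higher and none lower. The called share was 33.3%, against 10.3% of all genes. The list's median change was 0.10, and Tfrc, Ncoa4, Ireb2 and Hmox1 did not pass. Of 21 antioxidant genes 5 were higher and none lower (23.8% called, against 10.3% of all genes). Txn1 (thioredoxin) had 165 to 395 TPM (median 329) in LY and 52 to 142 TPM (median 103) in FGF4, without overlap (log2 fold change 1.52, SE 0.24, adjusted p = 0.000464). Gpx1, Gpx4 and Gclm were higher by 0.98, 0.54 and 0.91, while Nfe2l2, Nqo1 and Gclc did not pass.

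Metabolic genes moved in both directions. In the list of glycolysis and pentose phosphate genes 4 of 26 were higher and 6 lower in LY, with a median of -0.20. The called share was 38.5%, against 10.3% of all genes. Gpi1 and Hk1, which act at the top of glycolysis, were higher by 1.86 (adjusted p = 0.00303) and 2.69 (adjusted p = 0.00447), and Gapdh by 0.90 (adjusted p = 0.0023). Gapdh has many processed copies in the genome. Pfkp and Pfkm, isoforms of phosphofructokinase, were lower, at -3.25 (adjusted p = 0.004) and -3.12 (adjusted p = 0.00483). Eno1, Ldha and the glucose transporter Slc2a3 were lower, at -1.01, -2.19 and -1.43. Of 25 sterol genes, 2 were higher and 2 lower (16% called, against 10.3% of all genes). Ebp and Dhcr7, late enzymes of cholesterol synthesis, were higher by 1.42 (adjusted p = 0.00462) and 1.81 (adjusted p = 0.0167), and Insig2, which retains the SREBP complex in the endoplasmic reticulum, was lower, at -1.96 (adjusted p = 0.0134). Targets of SREBP2 did not pass: Insig1, Fdps and Fdft1 had changes of -0.18, -0.62 and -0.46 with adjusted p between 0.242 and 0.818. The median level of the sterol list was 5.45 in LY, 5.66 in FGF4, 4.01 in LY+FGF4 and 6.43 in DMSO on the log2 scale. Acly was the only called gene of 15 in fatty acid synthesis (6.67%, against 10.3% of all genes), lower, at -0.95 (adjusted p = 0.0167). Of 24 respiratory chain genes, Cox4i1, Ndufa4, Atp5d and Atp5b were higher, by 0.61 to 0.79, and none was lower. The called share was 16.7%, against 10.3% of all genes.

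Some genes of growth arrest and of the early response were higher in LY. Nr4a1, an orphan nuclear receptor induced within minutes of many stimuli, had 235, 412 and 961 TPM in LY, against 0, 11.1 and 130.1 TPM in FGF4. The groups did not overlap (log2 fold change 5.54, SE 0.84, adjusted p = 0.000342), and the medians were 90.6 TPM in LY+FGF4 and 31.4 TPM in DMSO. Of 16 immediate early genes 4 were higher and none lower (25% called, against 10.3% of all genes). Besides Nr4a1 these were Btg2, Zfp36 and Klf10, while Fos, Fosb, Egr1, Jun and Junb did not pass. Klf10 lost its call without LY replicate 2 or 6 or FGF4 replicate 7. Of 21 p53 targets 5 were higher and 2 lower (33.3% called, against 10.3% of all genes), with a median of 1.00. Cdkn1a, the CDK inhibitor of the p53 response, had 47.8 to 310.4 TPM (median 196) in LY and 1.52 to 158 TPM (median 16.6) in FGF4 (log2 fold change 3.26, SE 0.75, adjusted p = 0.00874). Perp, a desmosomal death effector, was higher by 2.78 (adjusted p = 0.00142) and Ei24 by 2.38 (adjusted p = 0.0021), without overlap for Ei24. Pmaip1, the BH3-only protein NOXA, went against them, lower in LY, at -2.27 (adjusted p = 0.00341), as did Sesn2, which is also on the ATF4 list. Trp53, Mdm2 and Bax did not pass. Among apoptosis regulators 3 of 17 were higher and none lower (17.6% called, against 10.3% of all genes). Bok and Bcl2l14, members of the BCL-2 family, were higher by 1.44 (adjusted p = 0.0085) and 2.73 (adjusted p = 0.022).

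Cell cycle genes differed in few cases. In the S phase list 4 of 24 were lower in LY and none higher: Tk1 (thymidine kinase) at -1.93 (adjusted p = 0.00131), Rfc4 at -0.94 (adjusted p = 0.00398), Mcm5 at -0.76 (adjusted p = 0.0226) and Rrm1 at -0.76 (adjusted p = 0.0486). Rrm1 lost its call in 13 of the 15 fits without a single library. The list's median was -0.34, and 16.7% of its genes were called, against 10.3% of all genes. In the mitosis list Cenpa and Nusap1 were higher and Top2a and Ccnb2 lower, with a median of 0.02. These were 16.7% of its 24 tested genes, against 10.3% of all genes. Top2a, the topoisomerase of chromosome condensation, had 16.9 to 42.6 TPM (median 34.8) in LY and 61.2 to 107 TPM (median 73) in FGF4, without overlap (log2 fold change -1.24, SE 0.26, adjusted p = 0.00434). Nusap1 and Ccnb2 each lost their call in 6 or more of the 15 such fits. Few ribosome biogenesis genes passed, with 1 of 26 higher and 2 lower (11.5% called, against 10.3% of all genes). Npm1 was at 0.61 (adjusted p = 0.00498), Bop1 at -0.999 (adjusted p = 0.0125) and Rrp9 at -0.88 (adjusted p = 0.0143).

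**Figure D5:**
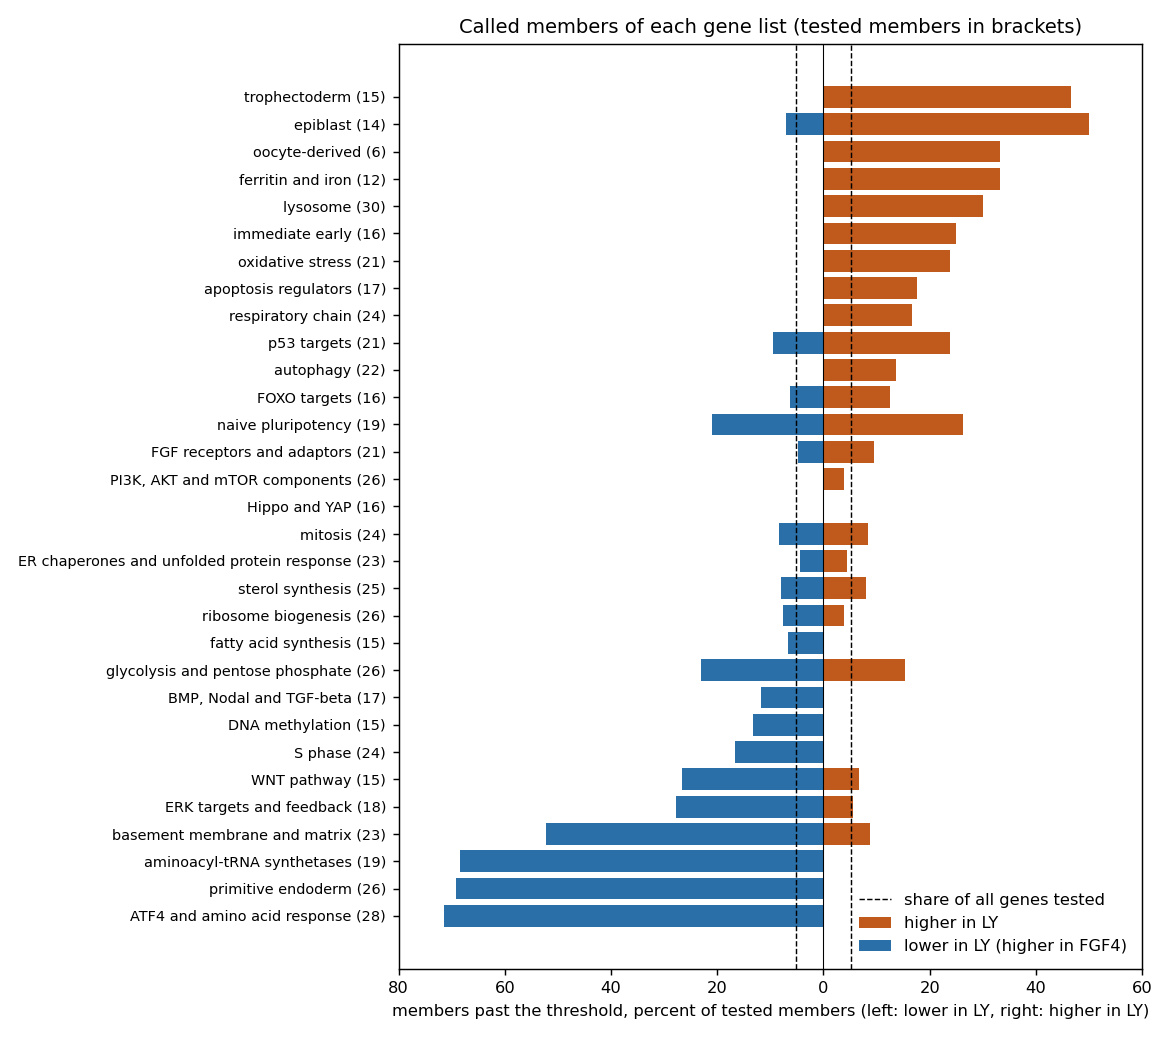
Share of the tested members of each gene list that passed the test, as a percent (right, orange: higher in LY; left, blue: lower in LY), with the number of tested members in brackets. The dashed lines mark the share over all genes, 5.14% and 5.13%. Trophectoderm and epiblast lists lead on the LY side, and the ATF4, primitive endoderm and synthetase lists lead on the FGF4 side.

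Other signalling lists held single genes with large differences. In the WNT list 4 of 15 were lower and 1 higher in LY (33.3% called, against 10.3% of all genes). The list's median change was 0.29, with 9 members positive and 6 negative. Dkk1, a secreted WNT antagonist, had 0, 0 and 12.9 TPM in LY, against 3.94, 58.4 and 130.3 TPM in FGF4 (log2 fold change -4.51, SE 0.75, adjusted p = 0.000873). The receptor Fzd7 was lower, at -2.32 (adjusted p = 0.00286), Ctnnb1 (beta-catenin) at -1.33 (adjusted p = 0.0167) and the feedback gene Axin2 at -1.59 (adjusted p = 0.0361), and Porcn, which lipidates WNT ligands, was higher by 1.42 (adjusted p = 0.00806). In the list of BMP, Nodal and TGF-beta genes 2 of 17 were lower (11.8% called, against 10.3% of all genes). Smad7, an inhibitory SMAD, was lower, at -2.75 (adjusted p = 0.0213), and Bmp6 was listed at 0 in all LY libraries and had 0.86, 3.82 and 72.5 TPM in FGF4. The DNA methyltransferase Dnmt3a was lower, at -2.73 (adjusted p = 0.0206), together with its partner Dnmt3l. They were 2 of 15 genes of DNA methylation (13.3% called, against 10.3% of all genes), while Dnmt3b, Dnmt1, Tet1 and Tet2 did not pass. Of 23 genes of the endoplasmic reticulum 2 were called (8.7%, against 10.3% of all genes). Herpud1 was lower, at -2.34 (adjusted p = 0.00674), and Canx higher, at 0.54 (adjusted p = 0.0438). The call of Canx was lost in 11 of the 15 fits without a single library. Hspa5, Xbp1 and Pdia4 had changes of -0.43, -0.25 and -0.04 and did not pass. None of 16 tested Hippo pathway genes passed with limma; without 1 of the libraries the count was 0 or 1 in each direction. Of 6 tested oocyte-derived genes Khdc3 and Dppa3 were higher, by 0.85 and 0.83 (33.3% called, against 10.3% of all genes).

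Some of the largest folds belonged to genes of none of these lists. Higher in LY was Fbxo2, a ubiquitin ligase subunit that recognises glycoproteins, with 73.1, 278 and 692 TPM in LY, against 0, 8.24 and 32.2 TPM in FGF4 (log2 fold change 5.03, SE 0.77, adjusted p = 0.000413). Crip1, a small LIM protein, had 19.1, 64 and 89.1 TPM in LY, against 0, 0 and 7.89 TPM in FGF4 (log2 fold change 4.75, SE 0.63, adjusted p = 9.76e-05). Rbm38, an RNA-binding protein, had 181, 398 and 546 TPM in LY, against 0, 32 and 53.1 TPM in FGF4 (log2 fold change 3.95, SE 0.63, adjusted p = 0.000589). None of the 3 overlapped between groups. Coro1a, an actin-binding coronin that overlaps Bola2, had 0 TPM in every FGF4 library and 9.93, 24.3 and 53.4 TPM in LY. The integrin subunit Itgb4 had 0 to 140.2 TPM (median 72.3) in LY and 0 to 12.4 TPM (median 0) in FGF4 and the small GTPase Rab38 had 29.7 to 76.1 TPM (median 51.5) in LY and 0 to 30.9 TPM (median 0) in FGF4, and both overlapped, with changes of 4.44 (adjusted p = 0.00498) and 4.11 (adjusted p = 0.00274). Ly6g6e, a membrane-anchored protein of the Ly6 family, was higher by 3.92 (adjusted p = 0.000293).

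Lower in LY were genes of varied function. Flrt3, a fibronectin-leucine-rich membrane protein, had 0, 0 and 49.5 TPM in LY, against 52.5, 246 and 548 TPM in FGF4 (log2 fold change -6.47, SE 0.77, adjusted p = 4.46e-05), and it lies inside Macrod2. Ube2l6, an ISG15-conjugating enzyme, had 0, 0 and 27.4 TPM in LY, against 19.8, 239.9 and 604 TPM in FGF4, with overlap in the highest LY library (log2 fold change -6.20, SE 0.80, adjusted p = 8.19e-05). Pgam2, the muscle form of phosphoglycerate mutase, had 0, 0 and 3.66 TPM in LY, against 13.3, 149 and 392 TPM in FGF4, without overlap (log2 fold change -6.14, SE 0.66, adjusted p = 1.56e-05). The water channel Aqp8 was listed at 0 in all LY libraries and had 6.94, 155 and 512 TPM in FGF4. Stbd1, a glycogen-binding protein, was also listed at 0 in all LY libraries, and reached 343 TPM in FGF4 with a lowest value of 0.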

How the data were processed

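The deposited table holds TPM values per gene symbol, computed by the authors for 26 single-ICM libraries. Per the labels, the reads had been trimmed and then de-duplicated. The submitters' processing notes name STAR, RSEM and mm10, while versions, annotation and strand setting are not stated in any source used here. TPM values carry no depth, so read numbers were estimated from the spacing of low values of 6734 single-transcript genes, under an assumed fragment length of 300 bases, and no counting intervals were derived.

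LY (7) and FGF4 (8) libraries were fitted with limma 3.58.1 (R 4.3.3) on log2(TPM + 1), with trend and robust options, for genes reaching 1 TPM in 5 or more of the 15 libraries. Tests were two-sided, with Benjamini-Hochberg adjustment over all 10943 genes. The procedure was tested on simulated data. P-values measure the spread between embryos. Replicate numbers did not pair libraries (7 pairs, r of residuals from -0.0714 to 0.016).

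Genes named are 36 fixed lineage, signalling and metabolic genes, the 12 largest and 12 smallest folds among called genes (where the higher group averaged 5 TPM or more, without predicted, Y-linked and Xist symbols), and up to 4 called members with the smallest p of each of 31 lists. Further members were named after their values were seen. Some genes that the rule names are left out of the text. The libraries and lists were chosen with earlier results of these data known. Annotated positions and overlaps are those of GENCODE M21, which matched 53255 of 55254 symbols and may differ from the annotation used by the authors. Promoter windows are from RefSeq (GRCm38.p6), matched by symbol. Alternatives were other pseudocounts, filters, normalizations and fits, covariates (replicate block, genes listed, Y-linked transcripts, trophectoderm level, estimated reads) and leaving out libraries.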

Additional observations from a re-analysis of the deposited data

Results flagged for a closer look

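Single libraries stood apart from the rest of their group for 27 genes. The measure was the gap between the extreme library and its nearest neighbour, as a share of the group's whole range. Gap and range were taken on the log2(TPM + 1) scale, while the levels printed beside the shares are TPM. With groups of 7 and 8 libraries chance alone marks about 1 group in 20 if the log2 levels are normally distributed. That rate does not hold where most libraries of a group have the same listed value. Where a single library held the transcript, the share is 1 at any level, as for Fgf4 and Prdm14 in FGF4 and Chac1 and Klf15 in LY. The share is given for each gene. No explanation was tested for any of them.

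FGF4 replicate 6 was the extreme library for 4 lineage genes. It held Fgf4 at 5.72 TPM where the other 7 were listed at 0 (share 1), and it was lowest for Gata4 (34.1 TPM, next 98.05, share 0.57), Fgfr2 (21.9 TPM, next 92.6, share 0.823) and Lamb1 (123 TPM, next 663, share 0.57). FGF4 replicate 2 was listed at 0 for Dusp6 (next 6.78 TPM, share 0.638), Rbm38 (next 23.96 TPM, share 0.806) and Klf15 (next 5.17 TPM, share 0.682), and was highest for Rrm1 (311 TPM, next 163, share 0.539). FGF4 replicate 7 alone held Prdm14 (3.09 TPM, share 1) and was highest for Itgb4 (12.4 TPM, next 0.44, share 0.859) and Btg2 (13.8 TPM, next 2.52, share 0.533). FGF4 replicate 1 was highest for Dnmt3l (107 TPM, next 43.8, share 0.651), replicate 3 lowest for Dhcr7 (8.69 TPM, next 36.5, share 0.539) and replicate 4 lowest for Npm1 (1355 TPM, next 1785, share 0.543).

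In LY, replicate 7 was lowest for Sox2 (4.1 TPM, next 29.9, share 0.724), Rab38 (29.7 TPM, next 51.1, share 0.575), Bcl2l14 (51.3 TPM, next 93.8, share 0.601) and Klf10 (14.1 TPM, next 73.4, share 0.61), and highest for Asns (451 TPM, next 162, share 0.706). LY replicate 4 was highest for Etv4 (26.2 TPM, next 1.8, share 0.688) and Spred1 (3.69 TPM, next 0.6, share 0.696). LY replicate 6 alone held Chac1 (5.64 TPM, share 1) and was lowest for Crip1 (19.1 TPM, next 49.7, share 0.616) and Top2a (16.9 TPM, next 31.5, share 0.669). LY replicate 5 was highest for Fth1 (4344 TPM, next 2507, share 0.591) and Atp5d (693 TPM, next 554, share 0.796). LY replicate 3 alone held Klf15 (1.31 TPM, share 1), and LY replicate 8 was lowest for Steap3 (42.9 TPM, next 79.9, share 0.678).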

How the results depend on the processing

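In 32 other settings, no named gene changed direction, and 22 of the 119 called ones, Gata4, Sox17, Nupr1, Chac1 and Asns among them, passed in every setting where they were tested. Leaving out 1 library at a time gave 930 to 1272 called genes (456 to 648 higher and 453 to 624 lower in LY, against 562 and 561), and 108 of 119 named genes kept their call in all 15 runs. The exceptions were Canx, Ccnb2, Foxo3, Gclm, Hras, Klf10, Nusap1, Prdm14, Rb1cc1, Rps6kb2 and Rrm1. Dusp6 passed without FGF4 replicate 2 (adjusted p = 0.0477). With the replicate number as a block, 691 genes passed, 302 of them lower in LY. The numbers did not pair the libraries. With Y-linked transcripts as a covariate 718 genes passed (349 higher and 369 lower). With the trophectoderm level as a covariate 139 passed (60 higher and 79 lower), and in the libraries without Y-linked transcripts, 2 LY and 6 FGF4, 39 passed (4 higher and 35 lower). The last comparison rests on fewer samples, and the cause of the other drops was not tested. The other settings gave 894 (no filter on low values) to 1383 (library weights) called genes, and 1029 with all 26 libraries in the fit. The fits with estimated reads (1076 genes), without FGF4 2, 3 and 6 (1196 genes) and without Y-linked libraries were chosen after seeing the data. TPM holds no read counts, so a value of 0 cannot be told from a transcript missed at low depth.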

Other observations

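A few genes with very small p lay outside the gene lists and the largest folds, and they were named after their values were seen. Uap1, which makes UDP-N-acetylglucosamine, had 60.1, 96 and 110.1 TPM in LY, against 295, 509 and 798 TPM in FGF4, without overlap (log2 fold change -2.59, SE 0.21, adjusted p = 5.92e-07). Grb10, an adaptor that restrains insulin receptor signalling, had 3.76, 8.28 and 12.6 TPM in LY, against 54.4, 66.4 and 167 TPM in FGF4, also without overlap (log2 fold change -3.20, SE 0.36, adjusted p = 2.14e-05). Gnai2, a subunit of inhibitory heterotrimeric G proteins, was higher in LY, with 589, 834 and 1710.1 TPM in LY, against 33.3, 83.3 and 225 TPM in FGF4 (log2 fold change 3.48, SE 0.34, adjusted p = 5.72e-06). Rplp0, a protein of the ribosomal stalk with processed copies in the genome, had 1944 to 2547 TPM (median 2133) in LY and 886 to 1263 TPM (median 1112) in FGF4 and did not overlap between groups (log2 fold change 0.99, SE 0.11, adjusted p = 3.18e-05).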
